A study of Schizosaccharomyces pombe with 8 samples.

Results

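The 3 centromeres and the silent mating-type region of fission yeast (Schizosaccharomyces pombe) hold 75 of the 9139 annotated features, other than coding exons, for which histone H3, H3K14ac and H4ac signals were measured. A feature was included when it lay wholly within chromosome I 3753687 to 3789421, chromosome II 1602264 to 1644747, chromosome III 1070904 to 1137003 (centromeres I, II and III) or chromosome II 2114008 to 2137121 (mating-type region), in the coordinates of assembly ASM294v2. No measured value entered this choice. Centromere I held 13 features, centromere II 25, centromere III 16 and the mating-type region 21. Of the 75, 28 were tRNA genes, all in the centromeres. The other 47 were 26 centromeric noncoding RNA (ncRNA) genes and, in the mating-type region, 10 protein-coding genes, 5 ncRNA genes, 5 XUTs, unstable noncoding transcripts that the study named for their sensitivity to the exonuclease Exo2 (Xrn1), and 1 small nucleolar RNA (snoRNA) gene.

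The study immunoprecipitated cross-linked chromatin with antibodies against H3 acetylated on lysine 14 (H3K14ac), against histone H4 acetylated on lysines 5, 8, 12 and 16 (H4ac), and against H3 irrespective of modification (H3), and sequenced the recovered DNA (ChIP-seq). Each antibody was used on 2 biological replicates of 1 strain, YAM2394, harvested in exponential growth. This strain is a wild type of the study, with mating type h+ and the auxotrophic markers leu1-32, ade6-M210 and ura4-D18. A figure legend of the study instead names YAM2400, a wild type of mating type h- for which no markers are listed, so the mating type of the cells is not settled here. A further 2 libraries of Input chromatin are listed and were not analysed here. Values are tag densities, in tags per nt of the feature, to which the authors had applied 1 scaling factor per library. A log2 ratio of 0 between an acetylation and H3 marks a feature that took an equal share of the tags with both antibodies, and is no measure of how many nucleosomes were acetylated.

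In fission yeast, each centromere has a central domain, in which the H3 variant Cnp1 (CENP-A) takes the place of much of the H3 and on which the kinetochore forms, flanked by repeats packaged in heterochromatin. Heterochromatin carries H3 methylated on lysine 9 by Clr4, is bound by the HP1 protein Swi6, and is kept low in histone acetylation by deacetylases such as Clr3 and Sir2. Clusters of tRNA genes, transcribed by RNA polymerase III, stand between the central domain and the repeats and at the outer limits of some centromeres. At the mating-type locus, mat1 is the expressed cassette and the other cassettes are silent copies within heterochromatin.

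The library facts that bear on these features were as follows. Tags recovered over protein-coding genes summed to between 14014219 and 15214393 per library, and the median nuclear protein-coding gene had 1.23 or 1.24 tags per nt in each of the 6 libraries. The log2 difference between replicates had an SD of 0.17 (H3K14ac), 0.15 (H4ac) and 0.11 (H3) over the 47 members other than tRNA genes, against 0.09, 0.08 and 0.11 over 9010 nuclear features outside the windows. Over the 28 tRNA genes it was 0.63, 0.36 and 0.56. A tRNA gene of the centromeres held 3 to 68 tags per library, whereas the other members held 16 to 8301. The sequences are repeated. In 53 of the 75 members, fewer than 10% of the 50-mers that overlap the feature, flanks included, occurred once in the reference genome, so tags of these features could not be told apart from those of their copies by sequence, although reads were mapped uniquely. All 75 members passed the filter on low values.

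The tRNA genes are themselves repeated, as their sequences show. The 28 genes comprised 12 distinct sequences, read from the RefSeq assembly ASM294v3, in which all 28 have the same start and end as in the table. The sequences below include tRNA-Ala and tRNA-Ile, each found in 4 centromeric genes, as was tRNA-Val (not shown). The others are of the genes with the highest H4ac and H3K14ac ratios (tRNA-Leu, tRNA-Thr), and of the tRNA-Glu gene, whose copy in centromere III has unique flanks. All sequences are printed 5′ to 3′ on the coding strand. Capitals mark the match to GNTCNANNC, which describes the B box, an internal promoter element bound by TFIIIC, and which was searched on both strands with no other motif.
SPATRNAILE.03 (tRNA-Ile, chrI:3768290-3768363, plus strand): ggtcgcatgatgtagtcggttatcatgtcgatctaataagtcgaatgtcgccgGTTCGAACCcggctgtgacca
SPATRNAALA.04 (tRNA-Ala, chrI:3765008-3765081, minus strand): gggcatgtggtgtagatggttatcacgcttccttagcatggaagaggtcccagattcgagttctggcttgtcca
SPATRNAGLU.03 (tRNA-Glu, chrI:3765434-3765505, minus strand; SPCTRNAGLU.10 has the same letters): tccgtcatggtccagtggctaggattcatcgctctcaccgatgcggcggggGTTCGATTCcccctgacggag
SPBTRNALEU.07 (tRNA-Leu, chrII:1644083-1644183, minus strand; SPCTRNALEU.12 has the same letters): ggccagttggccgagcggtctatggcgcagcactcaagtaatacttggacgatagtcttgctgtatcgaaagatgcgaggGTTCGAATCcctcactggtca
SPCTRNATHR.08 (tRNA-Thr, chrIII:1093083-1093154, minus strand; SPCTRNATHR.09 has the same letters): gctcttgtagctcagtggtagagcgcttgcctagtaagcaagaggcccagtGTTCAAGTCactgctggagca
Of the 28 centromeric tRNA genes, 24 (85.7%) held the motif, against 137 of 143 nuclear tRNA genes elsewhere (95.8%). The 4 genes without a match were the 4 copies of the tRNA-Ala sequence. The tRNA-Ile sequence occurred in 4 centromeric genes and in 6 nuclear tRNA genes in all, and the tRNA-Ala sequence in 4 and 9.

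To ask how the tag density of H3 varied along a centromere, ncRNA features were divided by position alone. Inner ncRNA features (9) lay within the span of the tRNA clusters that flank the central domain, which measured 12258 nt in centromere I, 11830 nt in centromere II and 14121 nt in centromere III. Outer ncRNA features (17) lay beyond that span. Mean H3 density ranged from 0.161 to 0.553 tags per nt over the inner features (median 0.270) and from 1.31 to 3.63 over the outer features (median 2.56), so the ranges did not meet. The median nuclear feature outside the windows had 1.20 tags per nt. Of the 91 features in the whole table with at least 0.3 kb of length and a mean H3 density of at least 2 tags per nt, 17 (18.7%) were members, and 16 of these were outer ncRNA features. At the same length, 153 features had a mean H3 density under 0.3 tags per nt. Of these, 5 (3.27%) were members, all inner ncRNA features. Base composition differed as well. The median GC content was 28.4% over the inner features (25 to 44.6%), 34.4% over the outer features and 36.5% over nuclear features outside the windows.

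Across all 75 members, the calls against H3 leaned towards low H3K14ac. By limma with Benjamini-Hochberg adjustment over 9137 tested features, H3K14ac was lower than H3 in 41 members and higher in 7 at an adjusted p under 0.05, where 36.5% and 56.2% of all tested features were called lower and higher. At 2-fold or more, 31 members were lower and 3 higher, against 8.55% and 26.2% of all tested features. H4ac was lower than H3 in 34 members and higher in 28 (36.7% and 56.0% of all tested features), and at 2-fold or more in 27 and 20 (7.23% and 24.4%). H3K14ac was lower than H4ac in 50 members and higher in 4 (31.7% and 34.7% of all tested features). At 2-fold or more these counts were 21 and 0, where 0.690% and 0.230% of all tested features were called.

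**Figure D1:**
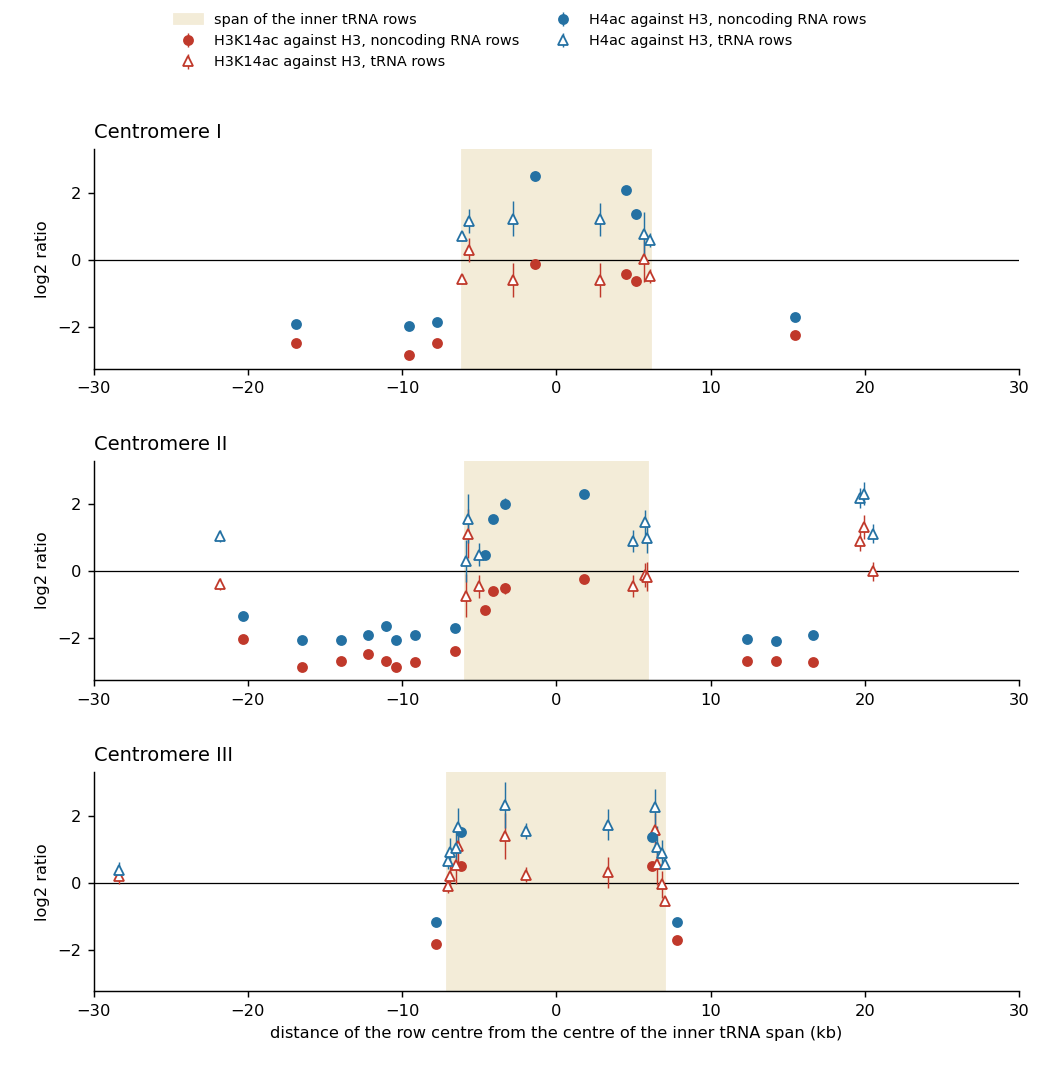
Log2 ratios of H3K14ac (red) and H4ac (blue) against H3 for each feature of the 3 centromeres, plotted by distance in kb from the centre of the inner tRNA span (shaded); circles are ncRNA features, open triangles tRNA genes, and bars the standard error of the fit. Outer ncRNA features lie below 0 for both acetylations, while within the shaded span H4ac lies above 0 and H3K14ac scatters around it.

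The outer ncRNA features, which are annotated as centromeric long ncRNAs apart from the short SPNCRNA.363, were low in both acetylations at all 3 centromeres. All 17 were called lower in H3K14ac than in H3, with log2 ratios of -2.88 to -1.72 (median -2.68), and all 17 were called lower in H4ac than in H3, with log2 ratios of -2.09 to -1.17 (median -1.91). Of all tested features, 36.5% were called lower in H3K14ac and 36.7% in H4ac, and 8.55% and 7.23% at 2-fold or more. Each of the 17 was at least 2-fold lower in both, and all 17 were called in every refit, those that left out 1 library included. The median feature outside the windows had log2 ratios of 0.26 and 0.23. Of the 76 features of the whole table with a called H3K14ac/H3 log2 ratio of -2 or less, 15 were outer ncRNA features and 8 lay in the mating-type region.

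In centromere I, nam5 (SPNCRNA.230, chromosome I 3753730 to 3754811), a long ncRNA near the left border, had 0.530 and 0.544 tags per nt in H3K14ac, 0.816 and 0.771 in H4ac, and 3.10 and 2.98 in H3. Both H3 libraries stood far above the 4 acetylation libraries. Its log2 ratios were -2.48 ± 0.04 for H3K14ac against H3 (SE, adjusted p = 1.1e-08, limma) and -1.93 ± 0.04 for H4ac against H3 (adjusted p = 2.1e-08). SPNCRNA.231, nearer to the central domain, had the lowest H3K14ac ratio of this centromere at -2.84, with 0.336 and 0.313 tags per nt in H3K14ac against 2.33 and 2.45 in H3. On the right side, SPNCRNA.234 had ratios of -2.26 and -1.71.

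Centromere II contributed 11 of the outer features, and they stretched from 20.3 kb to the left to 16.6 kb to the right of the centre. SPNCRNA.364 had the lowest H3K14ac ratio of any outer feature. Its densities were 0.248 and 0.291 in H3K14ac, 0.488 and 0.475 in H4ac, and 2.02 and 2.05 in H3, and its log2 ratios were -2.88 ± 0.07 (adjusted p = 4.2e-08) and -2.06 ± 0.07 (adjusted p = 2.0e-07). At the left end, SPNCRNA.359 had the highest H3K14ac ratio of the 11, at -2.01 ± 0.04, with an H4ac ratio of -1.35. SPNCRNA.366 and SPNCRNA.371 had the highest H3 densities of the members, with 3.54 and 3.67 tags per nt in SPNCRNA.366 and 3.54 and 3.72 in SPNCRNA.371. In nam6 (SPNCRNA.361), the H3 densities were 3.23 and 3.23, and the ratios were -2.68 for H3K14ac and -2.07 for H4ac.

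Centromere III has long repeat arrays, but only 2 outer ncRNA features were annotated within the window. SPNCRNA.482 and SPNCRNA.485 lay 7.82 and 7.83 kb to either side of the centre, and the shorter of their sequences was contained in the reverse complement of the longer. SPNCRNA.482 had 0.658 and 0.612 tags per nt in H3K14ac, 0.967 and 1.05 in H4ac, and 2.27 and 2.28 in H3. Its log2 ratios of -1.83 ± 0.05 and -1.17 ± 0.05, and those of SPNCRNA.485 (-1.72 ± 0.06 and -1.18 ± 0.06), were the smallest departures from H3 among the 17 outer features.

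The inner ncRNA features differed from the outer ones in both ratios to H3, and the acetylations differed from each other. In H3K14ac the median density was 0.189 tags per nt over inner and 0.450 over outer features. In H4ac it was 1.04 and 0.694, and in H3 0.270 and 2.56. Nuclear features outside the windows had medians of 1.34 (H3K14ac) and 1.31 (H4ac). A higher ratio to H3 was thus not always a higher density of acetylation. H4ac was called higher than H3 in all 9, with log2 ratios of 0.50 to 2.51 (median 1.55), and was at least 2-fold higher in 8. Over all tested features, 56.0% were called higher and 24.4% at 2-fold or more. A called H4ac/H3 log2 ratio of 2 or more was found in 509 features of the table, 4 of them inner ncRNA features. H3K14ac against H3 lay between -1.17 and 0.49 (median -0.44), with 5 features called lower, 2 called higher and 2 not called. The shares over all tested features were 36.5% lower and 56.2% higher. The call of SPNCRNA.369 (log2 -0.51, adjusted p = 0.023) was lost on leaving out H3 replicate 2, H3K14ac replicate 2 or either H4ac replicate (adjusted p = 0.055 to 0.093). H3K14ac was called lower than H4ac in all 9, with log2 ratios of -2.64 to -0.89 (median -2.15), against 31.7% of all tested features. In the whole table of 9137 tested features, 6 had a called H3K14ac/H4ac log2 ratio of -2 or less, and all 6 were inner ncRNA features of centromeres I and II. They also held the 6 lowest values of the table.

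SPNCRNA.233 (chromosome I 3769525 to 3770016), the feature nearest the centre of centromere I, held the lowest H3K14ac/H4ac ratio. It had 0.139 and 0.152 tags per nt in H3K14ac, 0.963 and 0.955 in H4ac, and 0.165 and 0.157 in H3. The H4ac libraries stood above the other 4, whereas the H3K14ac libraries lay just below both H3 libraries. H4ac was 5.68-fold higher than H3 (log2 2.51 ± 0.15, adjusted p = 2.7e-06), H3K14ac did not pass the test against H3 (log2 -0.13 ± 0.15, adjusted p = 0.42), and H3K14ac was 6.23-fold lower than H4ac (log2 -2.64 ± 0.15, adjusted p = 3.9e-05). The feature held 73 to 88 tags per library in H3K14ac and H3, and 499 to 524 in H4ac. Only 17.2% of its 50-mers were unique, so its tags could in large part not be told apart by sequence from those of a copy.

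In centromere II, the same order was found in features whose sequence is unique. In SPNCRNA.370 (chromosome II 1625750 to 1626227), 100% of the 50-mers occurred once. It had 0.196 and 0.202 tags per nt in H3K14ac, 1.19 and 1.22 in H4ac, and 0.258 and 0.215 in H3, and its log2 ratio was 2.31 ± 0.11 for H4ac against H3 (adjusted p = 8.2e-07) and -2.54 ± 0.11 for H3K14ac against H4ac (adjusted p = 2.2e-05). SPNCRNA.369, a small ncRNA with 95.7% unique 50-mers and a GC content of 25.9%, is short enough to show whole as an example of central-domain sequence, on the plus strand of ASM294v3:
SPNCRNA.369 (chrII:1620799-1620937): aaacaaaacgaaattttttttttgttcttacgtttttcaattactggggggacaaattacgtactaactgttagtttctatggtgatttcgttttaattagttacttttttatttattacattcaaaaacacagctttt
It had 0.223 and 0.155 tags per nt in H3K14ac, 1.12 and 1.11 in H4ac, and 0.252 and 0.288 in H3. H4ac was 4.03-fold higher than H3 (log2 2.01 ± 0.17, adjusted p = 1.8e-05) and H3K14ac 5.74-fold lower than H4ac (adjusted p = 6.3e-05).

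The inner features of centromeres I and II were graded by annotated position. In centromere II, the H4ac ratio was 0.50 in SPNCRNA.367 at 4.6 kb left of the centre, 1.55 in SPNCRNA.368 at 4.1 kb, 2.01 in SPNCRNA.369 at 3.3 kb and 2.31 in SPNCRNA.370 at 1.8 kb to the right. H3K14ac against H3 in these features was -1.17, -0.60, -0.51 and -0.23. Centromere I had H4ac ratios of 2.51 in SPNCRNA.233 at 1.4 kb from the centre, 2.08 in SPNCRNA.333 at 4.5 kb and 1.37 in SPNCRNA.396 at 5.2 kb. These are 7 features, and the order was not tested. SPNCRNA.333, SPNCRNA.396 and SPNCRNA.367 had 0% unique 50-mers, SPNCRNA.368 had 1.11% and SPNCRNA.233 had 17.2%. The values of these features cannot be fully tied to their annotated positions.

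Centromere III differed in that its inner ncRNA features were higher in both acetylations. SPNCRNA.483 and SPNCRNA.484, small ncRNAs that lie within the tRNA clusters rather than between them, had 0.836 and 0.723, and 0.795 and 0.683, tags per nt in H3K14ac. H3 gave 0.546 and 0.561 in SPNCRNA.483, and 0.513 and 0.532 in SPNCRNA.484. In both features all 4 acetylation libraries lay above both H3 libraries. Their log2 ratios were 0.48 ± 0.07 and 0.49 ± 0.07 for H3K14ac (adjusted p = 3.1e-04 and 4.5e-04) and 1.50 ± 0.07 and 1.38 ± 0.07 for H4ac. They were the 2 inner features called higher in H3K14ac than in H3, and no ncRNA feature of the centre of this centromere was annotated.

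**Figure D2:**
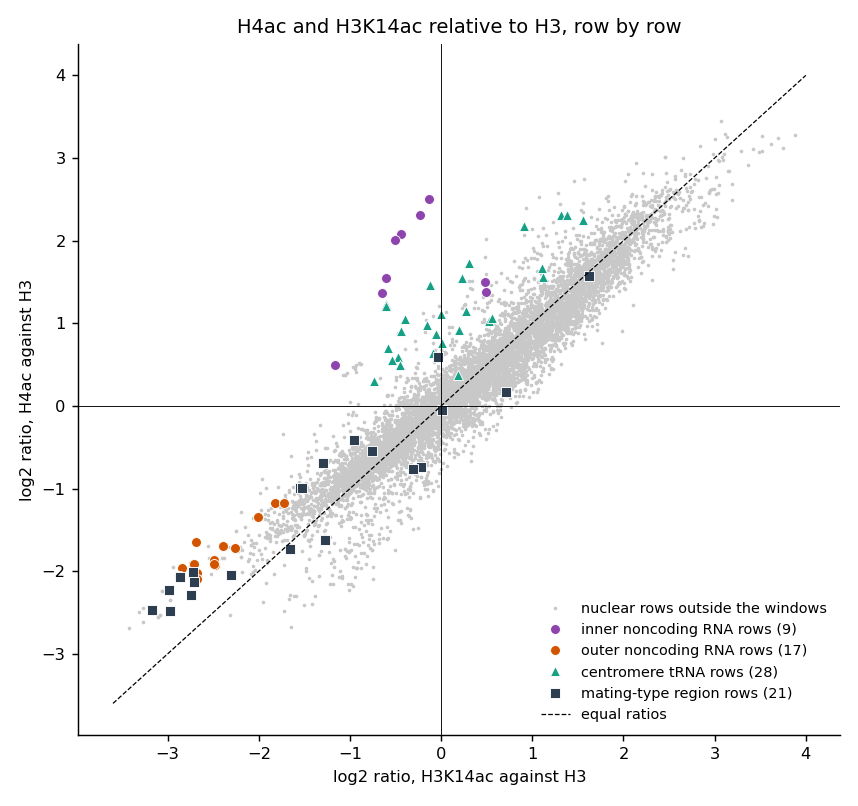
Log2 ratio of H4ac against H3 (vertical) plotted against that of H3K14ac against H3 (horizontal) for members of each class and, in grey, nuclear features outside the windows; the dashed line marks equal ratios. Both ratios share the H3 libraries, so the spread along the dashed line is in part shared by construction; inner ncRNA features lie farthest above that line, and the lowest H3K14ac/H4ac ratio among them is -2.64.

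The 28 tRNA genes were low in H3, and H4ac was called higher than H3 in 16 of them (57.1%), a share near that of all tested features (56.0%) and below the 127 of 143 (88.8%) among nuclear tRNA genes outside the windows. Their mean H3 density ranged from 0.058 to 0.351 tags per nt (median 0.159), against a median of 0.195 over 143 nuclear tRNA genes outside the windows. H4ac was called lower than H3 in 0 of the 28 (36.7% of all tested features). Its log2 ratios to H3 of 0.30 to 2.32 (median 1.06) were above 0 in all 28. H3K14ac against H3 had a median log2 ratio of 0.00 (-0.74 to 1.56), with 3 genes called higher and 2 lower. Of all tested features, 56.2% were called higher and 36.5% lower in that ratio. H3K14ac was called lower than H4ac in 15 (53.6%) and higher in 0 (median -1.02), where 31.7% and 34.7% of all tested features were called. These counts rest on both H4ac libraries. Without H4ac replicate 1 or 2, H4ac was called higher than H3 in 11 or 7 tRNA genes, and H3K14ac lower than H4ac in 9 or 7. Outside the windows, tRNA genes had medians of 1.00 for H3K14ac against H3, 1.53 for H4ac against H3 and -0.48 for H3K14ac against H4ac. Of those 143 genes, 103 were called higher and 0 lower in H3K14ac than in H3. With 3 to 28 tags per tRNA gene and library in H3, single genes are imprecise, and a gene shorter than 2 reads of 50 nt shares tags with its flanks.

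Both tRNA-Ile genes of centromere I had the lowest H3K14ac/H4ac ratios of any tRNA gene in the table. SPATRNAILE.03, whose sequence is given above, had 0.152 and 0.0634 tags per nt in H3K14ac, 0.489 and 0.293 in H4ac, and 0.149 and 0.162 in H3. The H4ac libraries lay above the other 4, which overlapped. Its log2 ratios were -1.83 ± 0.52 for H3K14ac against H4ac (adjusted p = 0.018) and 1.23 ± 0.52 for H4ac against H3 (adjusted p = 0.055, not called). The mirror copy SPATRNAILE.04 had -1.81 ± 0.50 (adjusted p = 0.017) and 1.21 ± 0.50 (adjusted p = 0.052). Without H4ac replicate 1 neither gene was called for H3K14ac against H4ac (log2 -1.47, adjusted p = 0.16, and -1.59, adjusted p = 0.12), and SPATRNAILE.04 was not called without H4ac replicate 2 either (log2 -2.03, adjusted p = 0.054).

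The highest ratios were found in centromere III and at the right border of centromere II. SPCTRNALEU.12 had 0.204 and 0.121 tags per nt in H3K14ac, 0.304 and 0.317 in H4ac, and 0.0365 and 0.0792 in H3, the last of which stand for 4 and 8 tags. Its H4ac/H3 log2 ratio of 2.32 ± 0.69 (adjusted p = 0.015) was the highest of the 28. SPBTRNALEU.07, which has the same sequence and lies at the border of centromere II, had a ratio of 2.31 ± 0.35 (adjusted p = 5.1e-04) and was called higher in H3K14ac as well (1.32 ± 0.35, adjusted p = 0.009). SPCTRNATHR.09 had the highest H3K14ac ratio (1.56 ± 0.53, adjusted p = 0.025) and SPBTRNATYR.03 was the third gene called higher (0.91 ± 0.30, adjusted p = 0.022). These calls rest on few tags. That of SPCTRNALEU.12 was lost without H4ac replicate 1 or 2 (adjusted p = 0.093 and 0.10), and that of SPBTRNALEU.07 in H3K14ac without H3K14ac replicate 2 (log2 1.12, adjusted p = 0.061). SPCTRNATHR.09 was not called in H3K14ac on leaving out any H3K14ac or H4ac library (adjusted p = 0.062 to 0.11), nor was SPBTRNATYR.03 without H3 replicate 1, H3K14ac replicate 1 or H4ac replicate 1 (adjusted p = 0.057 to 0.10).

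The 2 tRNA genes called lower in H3K14ac than in H3 lay at the outer edges of tRNA clusters. SPATRNAALA.04, at the left limit of the inner span of centromere I, had 0.190 and 0.190 tags per nt in H3K14ac, 0.501 and 0.458 in H4ac, and 0.311 and 0.270 in H3. Both H3K14ac libraries lay below both H3 libraries, and both H4ac libraries above them (log2 -0.58 ± 0.15, adjusted p = 0.0073, and 0.70 ± 0.15, adjusted p = 0.0029). SPCTRNAASP.07, at the right limit in centromere III, had -0.54 ± 0.10 (adjusted p = 0.0018) and 0.56 ± 0.10 (adjusted p = 0.0016). With weights from the tag counts (voom), neither gene was called lower in H3K14ac (adjusted p = 0.057 and 0.063). Their mirror copies at the opposite limits, of identical sequence, were not called in the main limma fit. SPATRNAALA.05 had -0.48 ± 0.20 (adjusted p = 0.059) and SPCTRNAASP.06 -0.09 ± 0.23 (adjusted p = 0.72). These genes and their copies had 0% unique 50-mers, so the calls cannot be tied to 1 edge. In SPCTRNAGLU.10, the tRNA gene with the most unique surroundings (76.9% of the 50-mers that overlap it, all of which reach into its flanks, since the gene itself is repeated), H4ac was higher than H3 with 0.854 and 0.667 against 0.269 and 0.236 tags per nt (log2 1.55 ± 0.23, adjusted p = 4.7e-04), and H3K14ac was not called (log2 0.23 ± 0.23). The 5 tRNA genes within 2 kb of a window border had a median H4ac/H3 ratio of 1.11 and those of the inner span one of 1.03.

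**Figure D3:**
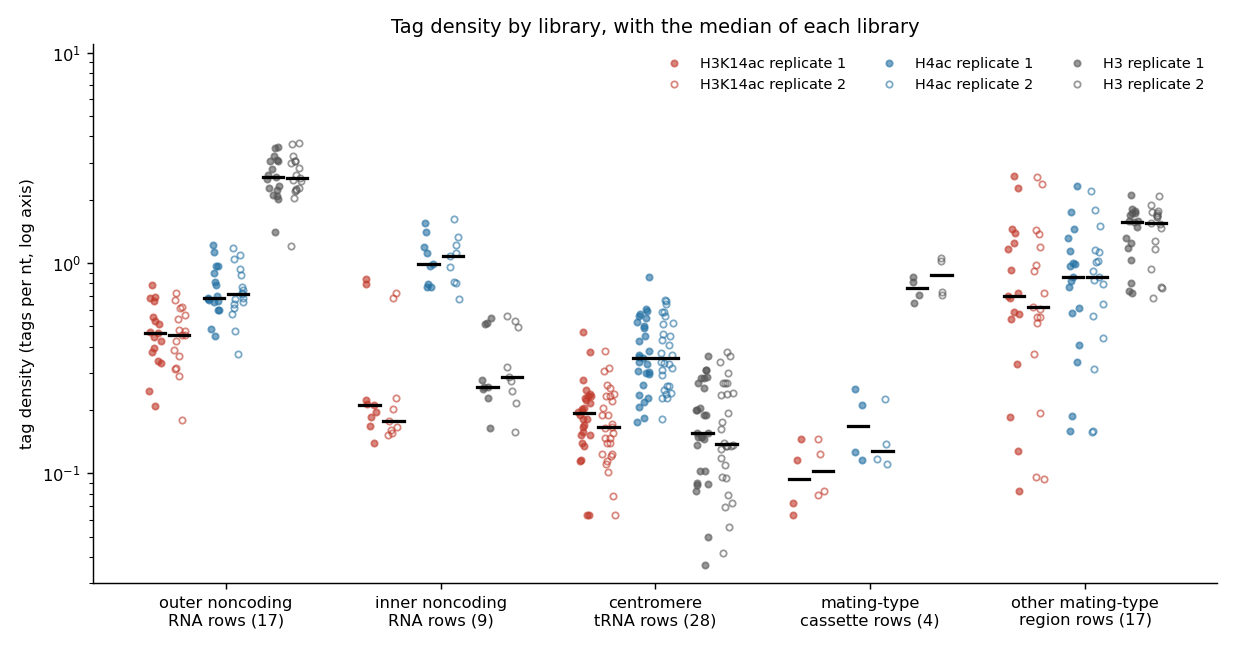
Tag density in tags per nt (log axis) of every member in each of the 6 libraries, by class of feature; filled and open circles are replicates 1 and 2, and black bars the median of a library. The outer ncRNA features show H3 medians of 2.56 and 2.54 against H3K14ac medians of 0.463 and 0.456, whereas in the inner ncRNA features the H4ac medians (0.989 and 1.08) stand highest.

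Because the arms of a centromere are inverted copies of each other, features at equal distances to either side of the centre could be compared. There were 13 such mirrored pairs, of which 11 were tRNA pairs, and all 11 had identical sequences on opposite strands. For H4ac against H3 the copies of a pair differed by a median of 0.12 on the log2 scale and at most by 0.68. For H3K14ac against H3 the median was 0.25 and the maximum 1.24, in SPBTRNAALA.09 and SPBTRNAALA.10. The SE of that ratio was 0.73 in SPBTRNAALA.09 and 0.37 in SPBTRNAALA.10. The ncRNA pair SPNCRNA.482 and SPNCRNA.485 differed by 0.11 in H3K14ac, and SPNCRNA.483 and SPNCRNA.484 by 0.13 in H4ac. Copies in a pair are not independent measurements where tags cannot be assigned to one of them. Over the 4 copies of the tRNA-Ala gene in centromeres I and II, the ratios ranged from 0.59 to 1.57 in H4ac and from -0.58 to 1.12 in H3K14ac.

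**Figure D4:**
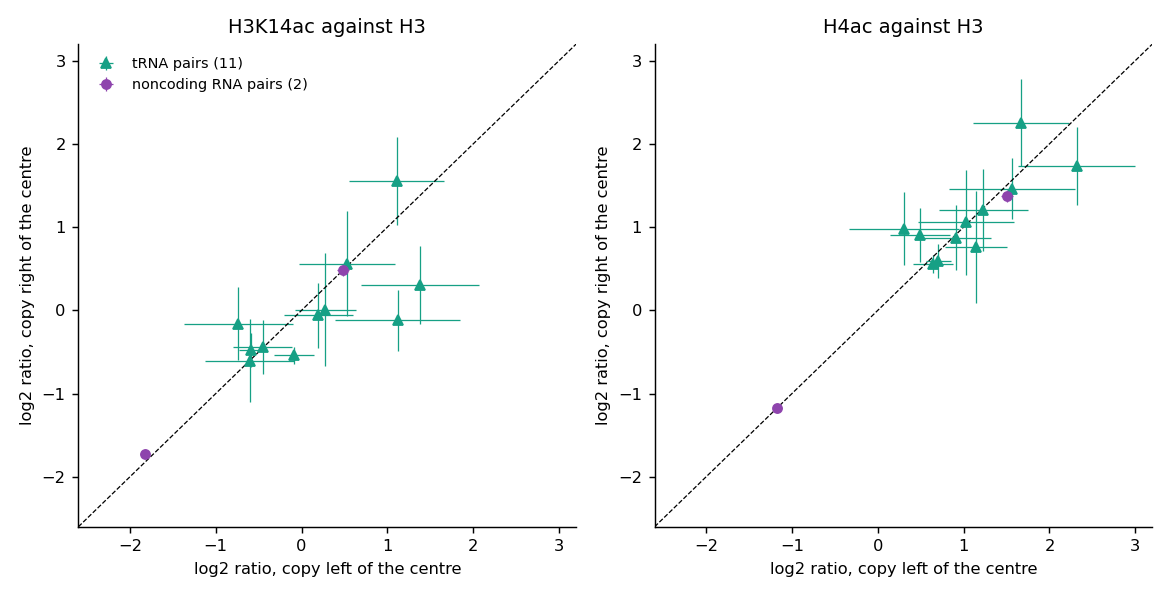
Log2 ratio of the copy right of the centre against that of the copy left of it for the 13 mirrored pairs, for H3K14ac (left panel) and H4ac (right panel) against H3, with standard errors of the fit; the dashed line marks equal values. The pairs differ by a median of 0.25 for H3K14ac and of 0.12 for H4ac.

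The mating-type region was low in acetylation at both ends and mixed in between, with H3K14ac/H3 ratios of -1.66 in XUT1101 to 1.62 in rpp202 near the centre. Of its 21 members, 17 were called lower and 2 higher in H3K14ac than in H3, and 17 lower and 3 higher in H4ac than in H3. Of all tested features, 36.5% were called lower and 56.2% higher in H3K14ac, and 36.7% and 56.0% in H4ac. In H3K14ac against H4ac, 4 members (19.0%) were called higher and 9 (42.9%) lower, none by 2-fold. Over all tested features these shares were 34.7% and 31.7%, and 0.230% and 0.690% at 2-fold or more. In the centromeres, 0 features were called higher and 41 (75.9%) lower. The 4 members called higher are 1 gene and 3 features within its bounds. Annotated features of the region overlap, and 13 pairs of members shared stretches of DNA. As ChIP tags carry no strand, those members are not separate measurements.

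The 4 cassette features, named after the M cassettes of the reference strain, were among the lowest, with H3K14ac ratios of -3.17 to -2.72. mat1-Mc, which encodes an HMG-box transcription factor of M cells, had 0.0632 and 0.0794 tags per nt in H3K14ac, 0.127 and 0.117 in H4ac, and 0.705 and 0.729 in H3. Every acetylation library lay far below both H3 libraries, and H3K14ac was 8.99-fold lower than H3 (log2 -3.17 ± 0.34, adjusted p = 7.2e-05) and H4ac 5.52-fold lower (log2 -2.46 ± 0.34, adjusted p = 3.1e-04). mat3-Mc had ratios of -2.98 ± 0.35 and -2.48 ± 0.35. The short mat1-Mi and mat3-Mi, which encode the other M-specific polypeptide, had -2.72 ± 0.18 and -2.02 ± 0.18, and -2.74 ± 0.29 and -2.29 ± 0.29. All 4 features had 0% unique 50-mers, so that the mat1 and mat3 copies could not be told apart. The table follows an M cassette at mat1, and whether the cells carried one there is not known, as their mating type is not settled. Their mean H3 density had a median of 0.818 tags per nt, below that of the outer centromeric features (2.56).

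The neighbours of the cassettes were low as well, and here the sequence was in part unique. SPNCRNA.388 (chromosome II 2115592 to 2117167), next to mat1, had 100% unique 50-mers. It had 0.185 and 0.193 tags per nt in H3K14ac, 0.337 and 0.314 in H4ac, and 1.59 and 1.54 in H3, with log2 ratios of -2.99 ± 0.07 (adjusted p = 3.3e-08) and -2.23 ± 0.07 (adjusted p = 1.2e-07). On the mat3 side, SPNCRNA.389 and SPNCRNA.390 had H3K14ac ratios of -2.72 and -2.87 and H4ac ratios of -2.13 and -2.07, but only 0% and 5.88% unique 50-mers.

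The 6 other protein-coding genes, all of unique sequence in ASM294v3, showed a graded order in H3K14ac from mat1 towards mat3, which was not tested. SPBC23G7.10c, an NADH-dependent flavin oxidoreductase, had 0.332 and 0.371 tags per nt in H3K14ac, 0.406 and 0.439 in H4ac, and 1.77 and 1.77 in H3 (log2 -2.30 ± 0.07 and -2.04 ± 0.07, adjusted p = 6.5e-08 and 1.3e-07). mag2, a DNA-3-methyladenine glycosylase, had -1.53 and -0.99, and rpt6, a regulatory subunit of the proteasome, -0.95 and -0.41, all called lower. SPBC23G7.13c, a urea transporter gene, had -0.22 and -0.73. SPBC23G7.14, an uncharacterized protein, had ratios of 0.01 ± 0.03 and -0.05 ± 0.03 and was not called.

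rpp202, which encodes the ribosomal protein P2, was the one protein-coding gene of the region with high acetylation. It had 2.29 and 2.36 tags per nt in H3K14ac, 2.32 and 2.19 in H4ac, and 0.739 and 0.760 in H3, so the acetylation libraries did not overlap with H3. H3K14ac was 3.07-fold and H4ac 2.98-fold higher than H3 (log2 1.62 ± 0.04 and 1.58 ± 0.04, adjusted p = 2.6e-08 and 3.2e-08). The next member towards mat3, SPNCRNA.389, had 0.128 and 0.0965 tags per nt in H3K14ac.

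A single protein-coding gene of the region was called higher in H3K14ac than in H4ac. SPBC23G7.13c had 1.45 and 1.43 tags per nt in H3K14ac, 0.996 and 1.02 in H4ac, and 1.69 and 1.68 in H3. The 3 antibodies gave separate levels, and the log2 ratio of H3K14ac to H4ac was 0.51 ± 0.03 (adjusted p = 2.8e-05). The other 3 members called higher in H3K14ac than in H4ac, SPNCRNA.1488, XUT1100 and XUT1102, lie within its bounds. XUT1100 had 2.58 and 2.55 tags per nt in H3K14ac, 1.76 and 1.78 in H4ac, and 1.58 and 1.55 in H3, and with rpp202 it was one of the 2 members called higher in H3K14ac than in H3 (log2 0.71 ± 0.03). XUT1101 and XUT1102, within the same gene, had ratios of -1.66 and -1.28 to H3, so that the gene value averaged over unlike stretches. The snoRNA gene snR92 was higher in H4ac than in H3 (log2 0.59 ± 0.05, adjusted p = 2.3e-05) and not called in H3K14ac (log2 -0.04 ± 0.05).

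**Figure D5:**
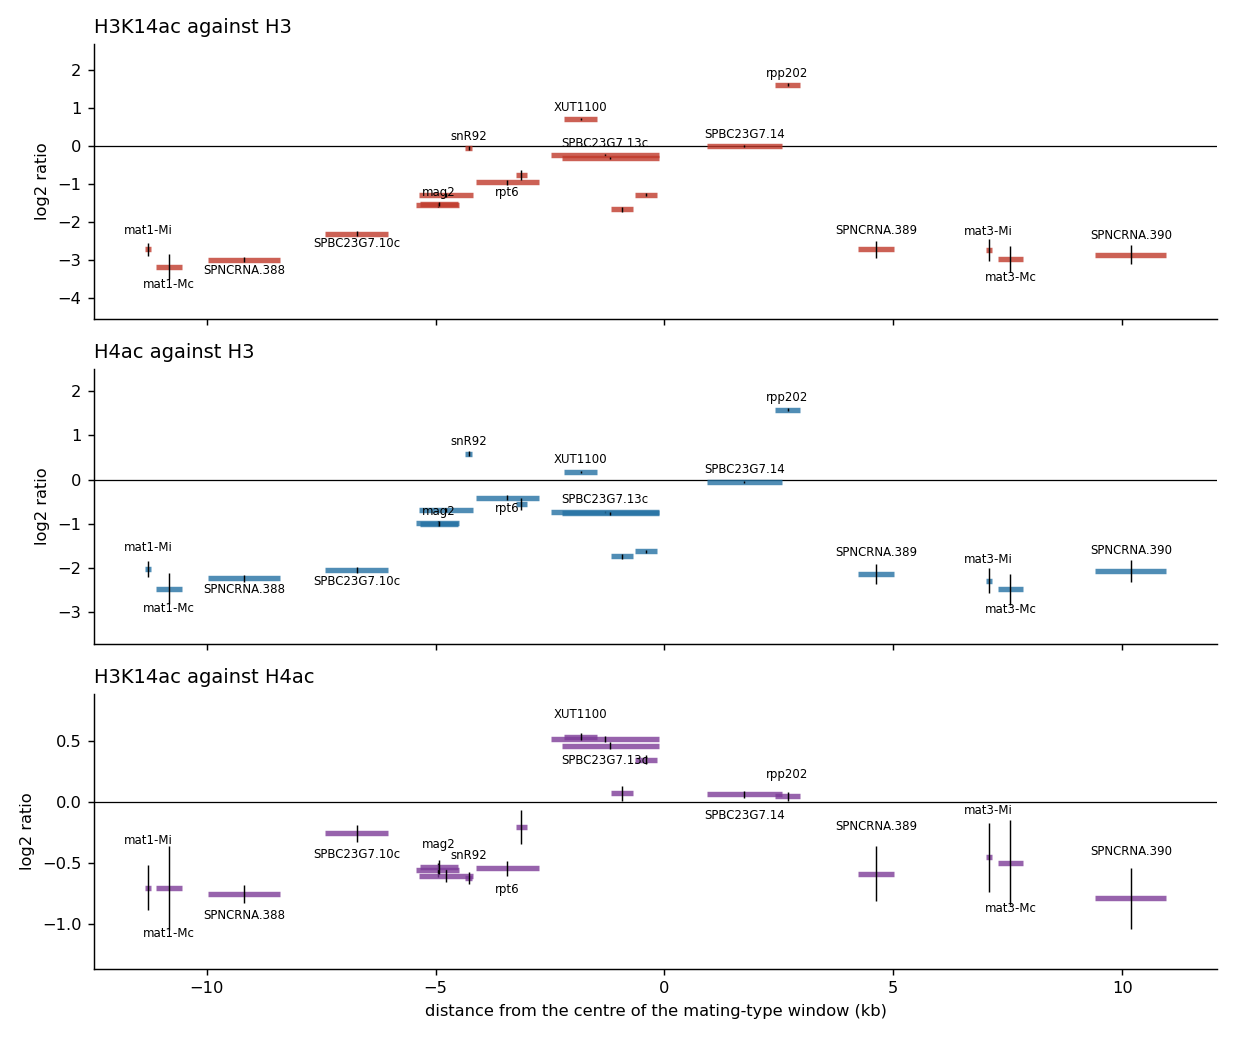
Log2 ratios along the mating-type region, by distance in kb from the centre of the window: H3K14ac against H3 (top), H4ac against H3 (middle) and H3K14ac against H4ac (bottom). Horizontal bars span a feature and vertical lines give the standard error of the fit; values reach -3.17 at the cassettes and 1.62 at rpp202.

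Compared as wholes, the 4 windows hold the classes in different numbers, so their medians also reflect that mix. The median log2 ratio of H3K14ac to H3 was -0.60 in centromere I, -0.74 in centromere II, 0.27 in centromere III and -1.53 in the mating-type region. For H4ac against H3 the medians were 0.76, 0.49, 1.04 and -0.995. The H4ac median of centromere II was -0.43 when only features with 20 or more tags in both libraries of at least 1 antibody were kept. This left 22 of the 28 tRNA genes, and a gene could pass on its H4ac tags alone. For H3K14ac against H4ac the medians of the 4 windows were -1.07, -0.996, -0.73 and -0.50. Centromere III, with 12 tRNA genes among 16 features, had 2 outer ncRNA features, and centromere II had 11 of 25. The median of H3K14ac against H3 was also highest in centromere III within each class. The medians in centromeres I, II and III were -0.53, -0.14 and 0.27 over tRNA genes, -0.44, -0.56 and 0.49 over inner and -2.48, -2.68 and -1.77 over outer ncRNA features. The classes were not matched between centromeres. In centromere III, the 2 inner features lay within the tRNA clusters, and the 2 outer ones shared sequence. Its 12 tRNA genes had a median SE of 0.44, with 1 called higher and 1 lower. The 20 kb to either side of each window had medians of -0.03, 0.15, 0.41 and 0.44 for H3K14ac against H3, where all nuclear features outside the windows had 0.26.

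The tRNA genes as a class had higher medians than the other members in both ratios to H3. The medians were 0.00 over 28 tRNA genes and -1.83 over the 47 other members for H3K14ac against H3, and 1.06 and -1.62 for H4ac against H3. The classes also differed in length, with 71 to 101 nt for tRNA genes and 94 to 2695 nt for the other members. The 8 other members shorter than 0.3 kb had medians of -0.63 and 0.02. The 4 of these in the centromeres, where all tRNA members lie, had -0.01 and 1.44. Their H3K14ac ratios were -2.69, -0.51, 0.48 and 0.49, so none lay near -0.01, and their H4ac ratios ran from -1.65 to 2.01. The lowest in both was the outer feature SPNCRNA.363, and SPNCRNA.483 and SPNCRNA.484 lie within tRNA clusters. Within the inner span, where tRNA genes and ncRNA features lie side by side, their medians were -0.06 and -0.44 for H3K14ac. For H4ac they were 1.03 and 1.55, so for H4ac the order was the opposite there.

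The protein-coding genes within 50 kb of the ends of chromosomes I and II, which are also low in acetylation, offered a comparison for the outer features. The 17 outer ncRNA features had medians of -2.68 (H3K14ac) and -1.91 (H4ac) against H3, and the 61 subtelomeric genes -1.01 and -1.61. H3K14ac against H4ac was called lower in all 17 outer features (median -0.66), whereas among the 61 subtelomeric genes it was called higher in 45 and lower in 10 (median 0.51). The shares over all tested features were 34.7% higher and 31.7% lower.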

How the data were processed

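Chromatin from exponentially growing wild-type cells (YAM2394 per the labels) was immunoprecipitated with antibodies against H3K14ac, H4ac or H3, with 2 biological replicates each, and sequenced as single-end reads of 50 nt. Per the study's methods and notes, reads were mapped uniquely with Bowtie2 to ASM294v2. The signal that the authors deposited is a density, the tags of an annotated feature over its length in nt, and was not divided by H3 or Input. How tags were assigned to a feature is not given in the sources used here. Density times length was a whole multiple of 1 step in 100% of values in each library (tolerance of 0.01), which gave the tags quoted. The authors' pooled columns were not used, and 2 Input libraries were not analysed here, so comparisons with Input were left out.

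Log2(density + 0.01) was fitted for the 9137 of 9139 features, other than coding exons, that reached 0.05 tags per nt in 2 or more libraries, with limma 3.58.1 in R 4.3.3 (1 mean per antibody, eBayes with trend). Benjamini-Hochberg adjustment ran over those features, and an adjusted p under 0.05 was called. The pseudocount understates changes at low densities. On simulated data for H3K14ac against H3 (9098 features), 97% of features changed by 0.5 and 99% of those changed by 1 on the log2 scale were called, and 0.101% of unchanged ones. Tags were drawn around the H3 densities with counting noise and a small added spread, and 100 random features were changed at each size. These shares do not describe the members, whose replicates were not simulated as a set. The limits of the inner span were the outermost tRNA genes lying over 2 kb from a window border, since the reference annotates no repeats there. Border tRNA genes were kept apart. Uniqueness was the share of the 50-mers overlapping a feature by any base, flanks included, that occur once in ASM294v3. The deposited annotation also holds a separate mating-type contig. It was not in the reference used here, so copies on it were not counted in the uniqueness of mating-type features. In ASM294v3, 70 of 75 members were found by locus tag and shared a start or end, and 63 shared both. Mirrored pairs had centres at equal distances within 0.2 kb and lengths within 10 nt. The 10 protein-coding genes are all named, and of other features, per window and class, the 3 lowest and 3 highest in each acetylation ratio and the 3 lowest in H3. Others named (nam6 among them) were chosen after their values were seen. The members and lists were chosen with earlier results of these data known. Members are not replicates, so lists are described by counts and medians, with no test over members. Replicate numbers were shared between antibodies, but same-numbered libraries did not deviate together (r of -0.07, -0.02 and 0.08), so no block was used.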

Additional observations from a re-analysis of the deposited data

How the results depend on the processing

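Counts of calls and medians over members were recomputed under each alternative. Of 13 changes of sign in single features, all arose on leaving out 1 library, in values that were not called. These were H3K14ac against H3 in SPATRNAGLU.03 (-0.21 to 0.76), SPATRNAGLU.04 (-0.55 to 0.57), SPATRNAILE.04 (-1.23 to 0.022), SPBC23G7.14 (-0.0035 to 0.026), SPCTRNAARG.13 (-0.45 to 0.33), SPCTRNAASP.06 (-0.20 to 0.016), SPCTRNALYS.10 (-0.10 to 0.47) and snR92 (-0.11 to 0.029), and H3K14ac against H4ac in SPBTRNAALA.09 (-0.92 to 0.024). Depth limits the tRNA genes, with as few as 3 tags. Of these genes, 25 were called higher in H4ac than in H3 with voom weights and 24 without the filter, against 16, and the cause was not tested.

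With the replicate number as a block, 7 members were called higher and 42 lower in H3K14ac against H3, 29 and 34 in H4ac against H3, and 4 and 48 in H3K14ac against H4ac. The libraries shared only a number and were not paired.

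Leaving out each library in turn gave 5 to 8 members called higher and 40 to 42 lower (H3K14ac against H3), 19 to 30 and 33 to 34 (H4ac against H3), and 4 to 5 and 41 to 51 (H3K14ac against H4ac). Medians of H3K14ac against H3 ran from -1.21 to -0.74 in centromere II, from 0.27 to 0.48 in centromere III, from -2.68 to -2.57 over outer ncRNA features and from -0.089 to 0.084 over tRNA genes. Those of H4ac against H3 ran from 0.75 to 0.96 in centromere I, from 0.30 to 0.59 in centromere II, from 1.05 to 1.13 over tRNA genes, from -1.65 to -1.51 over the other members and were -1.91 over outer ncRNA features. Those of H3K14ac against H4ac ran from -2.18 to -2.15 over inner and from -0.71 to -0.61 over outer ncRNA features. The difference between tRNA genes and other members ran from 1.73 to 1.88 for H3K14ac and from 2.57 to 2.74 for H4ac.

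The following medians moved by more than their SD between replicates. With a pseudocount of 0.001, H4ac against H3 had 1.11 over tRNA genes, -1.63 over other members and -1.93 over outer ncRNA features, with a difference of 2.75 between tRNA genes and other members. H3K14ac had -2.70 over outer ncRNA features (against H3) and -2.20 over inner ones (against H4ac). With a pseudocount of 0.1, H3K14ac against H3 had -0.43 in centromere II, 0.18 in centromere III, -1.69 over other members and -2.30 over outer features. H4ac against H3 had 0.57, 0.37 and 0.65 in centromeres I, II and III, 0.77 over tRNA genes, -1.46 over other members, 1.37 over inner and -1.78 over outer features. H3K14ac against H4ac had -1.72 over inner and -0.59 over outer features, and tRNA genes minus other members 1.71 for H3K14ac and 2.23 for H4ac.

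Without the filter, 11 members were called higher in H3K14ac than in H3. Among features with at least 20 tags in both libraries of any 1 antibody, the median of H4ac against H3 was 0.93 in centromere I and 1.13 over tRNA genes. It was -0.43 in centromere II, where it changed sign with 22 of 28 tRNA genes kept over the 3 centromeres. That of H3K14ac in centromere II was -1.59. The tRNA difference was 2.75 for H4ac. A feature could pass on its H4ac tags alone, as SPCTRNALEU.12 did with 34 and 34 tags in H4ac and 4 and 8 in H3. For H4ac against H3 this filter is therefore no check on depth. With libraries centred on protein-coding genes, H4ac against H3 had -1.61 over other members and -1.90 over outer features. With voom weights it had -1.64 and -1.93, and H3K14ac had -2.70 over outer features (against H3) and -2.21 over inner ones (against H4ac).

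With features that only overlap a window added, H4ac against H3 had 0.70 in centromere I, -1.18 over other members and -1.91 over outer features. H3K14ac against H3 had -1.29 in the mating-type region, -1.66 over other members and -2.49 over outer features, and the tRNA differences were 1.67 (H3K14ac) and 2.23 (H4ac). Without XUTs, and nc-TUs, of which none was a member, 2 members were called higher in H3K14ac than in H4ac. H3K14ac and H4ac against H3 then had -1.92 and -1.51 in the mating-type region and -2.28 and -1.67 over other members, with tRNA differences of 2.28 and 2.73.

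Among features with at least 50% unique 50-mers, 2 members were called higher and 12 lower in H3K14ac than in H3, 6 and 11 in H4ac than in H3, and 10 lower in H3K14ac than in H4ac. H3K14ac and H4ac against H3 had -0.37 and 2.16 in centromere II, 0.23 and 1.55 in centromere III and for its 1 tRNA gene, -0.95 and -0.73 in the mating-type region, and -0.76 and -0.69 over other members. Inner features had 2.16 (H4ac against H3) and -2.53 (H3K14ac against H4ac), and tRNA differences were 0.99 and 2.23. No outer feature and none of centromere I remained. The tRNA differences were 0.64 and 1.04 against the 8 other members shorter than 0.3 kb, and 2.33 and 2.73 against all other centromeric members. At 2-fold or more, 3 members were called higher in H3K14ac than in H3, and 0 higher and 21 lower than in H4ac.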
